A study of Mus musculus with 59 samples.

Results

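The change in gene expression between young adulthood and mid-life was followed in the mouse cortex by comparing 15 mice of days 170 to 319 with 10 mice of days 55 to 111. These 25 mice were chosen by the age in their labels, out of 59 mice in the series. The study asked what a human gene, GLUD2, does to the developing and ageing cortex. GLUD2 encodes a glutamate dehydrogenase, a mitochondrial enzyme that turns glutamate into 2-oxoglutarate, and mice lack it. Transgenic mice (GLUD2+/-) received it on a human bacterial artificial chromosome, RP11-610G22, injected into fertilised eggs of C57Bl/6 mice, and control littermates did not carry it. The artificial chromosome can hold human sequence besides GLUD2, and there were 2 transgenic lines, a and b.

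The young adult group held 4 control mice (2 of line a and 2 of line b) and 6 transgenic mice (3 and 3), with 5 females and 5 males and a median age of 81 days. The mid-life group held 8 control mice (4 and 4) and 7 transgenic mice (3 of line a and 4 of line b), with 7 females and 8 males and a median age of 262 days. All were C57Bl/6, and each gave 1 library of polyA RNA from tissue labelled prefrontal cortex. Genotypes were pooled, with genotype and line as terms of the model, so a difference describes both genotypes together. A control and a transgenic mouse of day 538 stayed outside the comparison and are given as further values.

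By young adulthood the mouse cortex has its neurons, its layers and most of its myelin, and the growth programmes of the newborn brain are largely shut down. Adult cortex goes on changing at a slower pace: microglia, the resident immune cells, are known to take up more lysosomal and antigen-presenting activity with age, myelin is still added, and the few dividing precursors become fewer. Tissue RNA averages over all of these cells, so that fewer cells of a type and less RNA per cell cannot be told apart here.

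Expression was given as RPKM, reads per gene scaled to transcript length and library depth. The depth behind the 25 libraries was estimated at 8.93 M reads in the shallowest, 10.4 M in the median and 12.7 M in the deepest library, from the steps of the values of 488 genes expressed at low levels. Relative depth was 1.03 ± 0.0698 (SD, n = 10) in young adult and 1.02 ± 0.108 (SD, n = 15) in mid-life libraries (two-sided permutation p = 0.738). GLUD2 itself reached at most 0.637 RPKM in the 12 control mice and at least 6.62 RPKM in the 13 transgenic mice, so that no library went against its genotype label. Defining cortical genes were present in every library but at uneven levels: Slc17a7, the vesicular glutamate transporter of cortical excitatory neurons, ran from 114 to 428 RPKM, and Tbr1, a transcription factor of deep-layer neurons, from 2.61 to 23.0 RPKM. Markers of neighbouring regions varied as widely, as given further on with the results they touch.

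Few genes passed the threshold for a difference between the ages, which does not show that the others were unchanged. Of the 15362 genes that reached 0.5 RPKM in 10 or more of the 25 mice, 22 (0.143%) passed an adjusted p of 0.05 in a limma model of log2(RPKM + 0.5). Of these, 9 rose (0.0586%) and 13 fell (0.0846%) from young adulthood to mid-life. That balance turned with the scaling of the libraries, to 12 higher and 8 lower under quantile normalization and to 13 higher and 9 lower under median-ratio scaling. Unadjusted p-values under 0.05 were found for 1933 genes (12.6%), 891 higher (5.8%) and 1042 lower (6.78%). Of all genes tested, 7699 (50.1%) had a positive and 7663 a negative difference, with a median of 0.00 on the log2 scale. Counts of list members given below stand against these shares of all genes, 50.1% positive and 12.6% at unadjusted p under 0.05 (limma). Among the called genes the ratio of mean RPKM, mid-life over young adult, ran from 0.484 for Rrm2 to 3.34 for Rpe65, and 0 of the 15362 genes (0%) had age groups free of overlap.

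The set of called genes depended on single libraries. Leaving out any 1 of the 25 mice gave between 0 and 25 calls with a median of 4, and 0 genes passed without young control mouse 17, 18 or 19 or without mid-life transgenic mouse 58. Also 0 passed without mice 21, 23, 26 and 28, each the highest of the 25 in at least 1 marker list of neighbouring tissue or blood. All 4 were mid-life controls, a group of 8 mice, so that fit also had fewer mice on that side. Young mouse 49 stayed in, with a hypothalamus sum of 658 RPKM against 631 RPKM in mouse 21. Again 0 passed with the GC slope of each library as a covariate. In these fits 1292 and 1765 genes had an unadjusted p under 0.05 (limma). The direction of the 22 differences was the same in every fit of this paragraph. These fits reuse most of the mice that chose the genes, so a kept direction is no separate support.

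**Figure D1:**
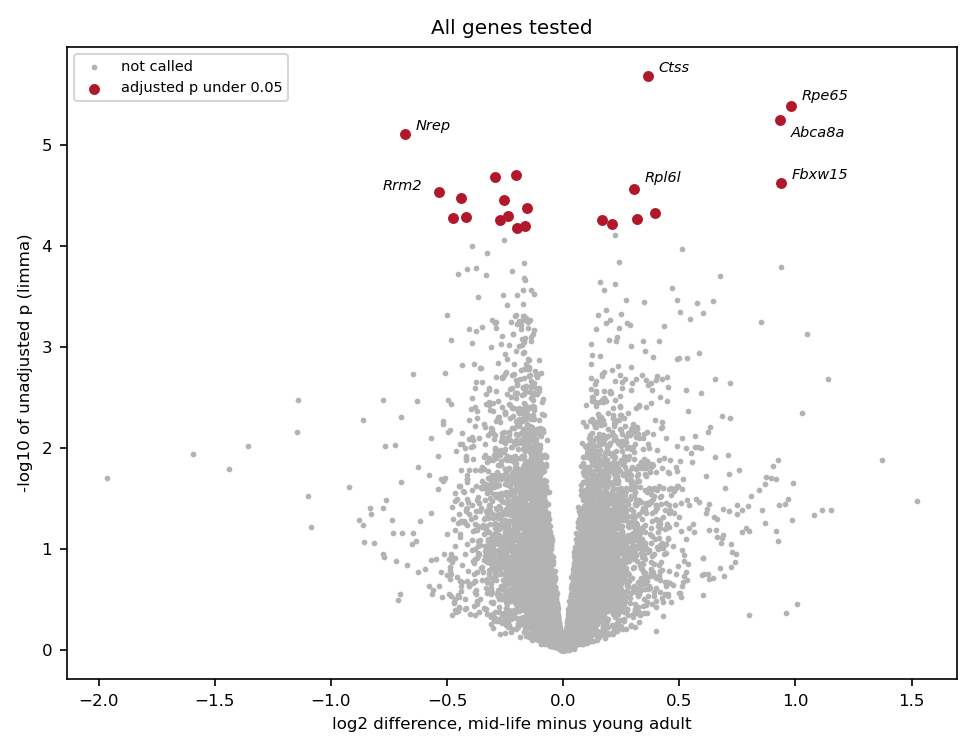
Each point is 1 of 15362 genes, with its log2 difference (mid-life minus young adult) across and the -log10 of its unadjusted limma p up. The 22 genes with adjusted p under 0.05 are red, and Ctss, Rpe65, Abca8a and Nrep have the smallest p-values.

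Among the rises, the smallest p belonged to Ctss (ENSMUSG00000038642), the gene of cathepsin S, a lysosomal protease of microglia and other antigen-presenting cells that trims the invariant chain of MHC class II molecules. In young adults Ctss ranged from 26.8 to 37.5 RPKM with a median of 32.8, and in mid-life from 36 to 50.6 RPKM with a median of 41.8. In 12 of 15 mid-life mice it was above the highest young mouse, so that the groups overlapped by only a few mice. The log2 difference was 0.37 ± 0.06 (SE, adjusted p = 0.0294). It was 0.39 ± 0.09 (SE) in control and 0.35 ± 0.08 (SE) in transgenic mice. The mice of day 538 stood at 46.8 RPKM (control) and 52.2 RPKM (transgenic), and the means of earlier mice were 12.2 ± 10.3 RPKM (SD, n = 23) on days 3 to 12 and 29 ± 2.60 RPKM (SD, n = 9) on days 21 to 34. Ctss thus had its lowest mean in newborn and its highest in mid-life and older cortex. The call held in 14 of 18 other settings and without 21 of the 25 mice singly, and was lost without mouse 17, 18, 19 or 58 (adjusted p up to 0.0858, log2 difference 0.33 to 0.39 over all 25 fits). Over the 18 settings the log2 difference ran from 0.30 to 0.40 and the adjusted p up to 0.695 (limma). Ctss was not called with all 59 mice fitted.

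Of 16 microglial genes tested 1 rose, Ctss itself, and 13 of 16 had a positive difference, with a median of 0.06 on the log2 scale against 0.00 over all genes. C1qa, a chain of complement C1q, was 30.01 ± 4.63 RPKM (SD, n = 10) in young and 35.5 ± 4.28 RPKM (SD, n = 15) in mid-life mice (log2 difference 0.25 ± 0.07, SE, adjusted p = 0.176). C1qb stood at 0.18 ± 0.07 (SE, adjusted p = 0.306), and the homeostatic marker Tmem119 at 0.13 ± 0.06 (SE, adjusted p = 0.414). The 16 genes summed to 235 ± 18.6 RPKM (SD, n = 10; 209 to 280) in young and 258 ± 18.4 RPKM (SD, n = 15; 223 to 293) in mid-life mice, 3 of which were above the highest young mouse.

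Complement and antigen presentation genes, which carry immune recognition in many cell types, all had positive differences: 13 of the 13 tested of 15 in the table, with a median of 0.22 on the log2 scale. None passed the adjusted threshold in limma, and 6 (46.2%) had an unadjusted p under 0.05, against 12.6% of all genes. C4b, the complement component cleaved on the way to C3, came nearest, at 3.23 ± 0.853 RPKM (SD, n = 10) in young and 5.51 ± 1.62 RPKM (SD, n = 15) in mid-life mice (log2 difference 0.67 ± 0.15, SE, adjusted p = 0.0849). Tap2 and Tap1, the 2 chains of the transporter that loads peptides for MHC class I, stood at 0.26 ± 0.08 (SE, adjusted p = 0.176) and 0.22 ± 0.08 (SE, adjusted p = 0.247). H2-K1, a class I heavy chain, stood at 0.22 ± 0.08 (SE, adjusted p = 0.251). The list's median was 0.03 with scores for 4 neighbouring tissues as covariates and 0.11 with a hypothalamus score alone, and it was 0.13 with a blood score, with array weights or with log2 day as a continuous term, and 0.27 at most. Interferon response genes had a median of 0.02 over 15 tested, with 0 called (limma) and 1 at unadjusted p under 0.05, Ifit3 (0.36 ± 0.14, SE, adjusted p = 0.306).

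**Figure D2:**
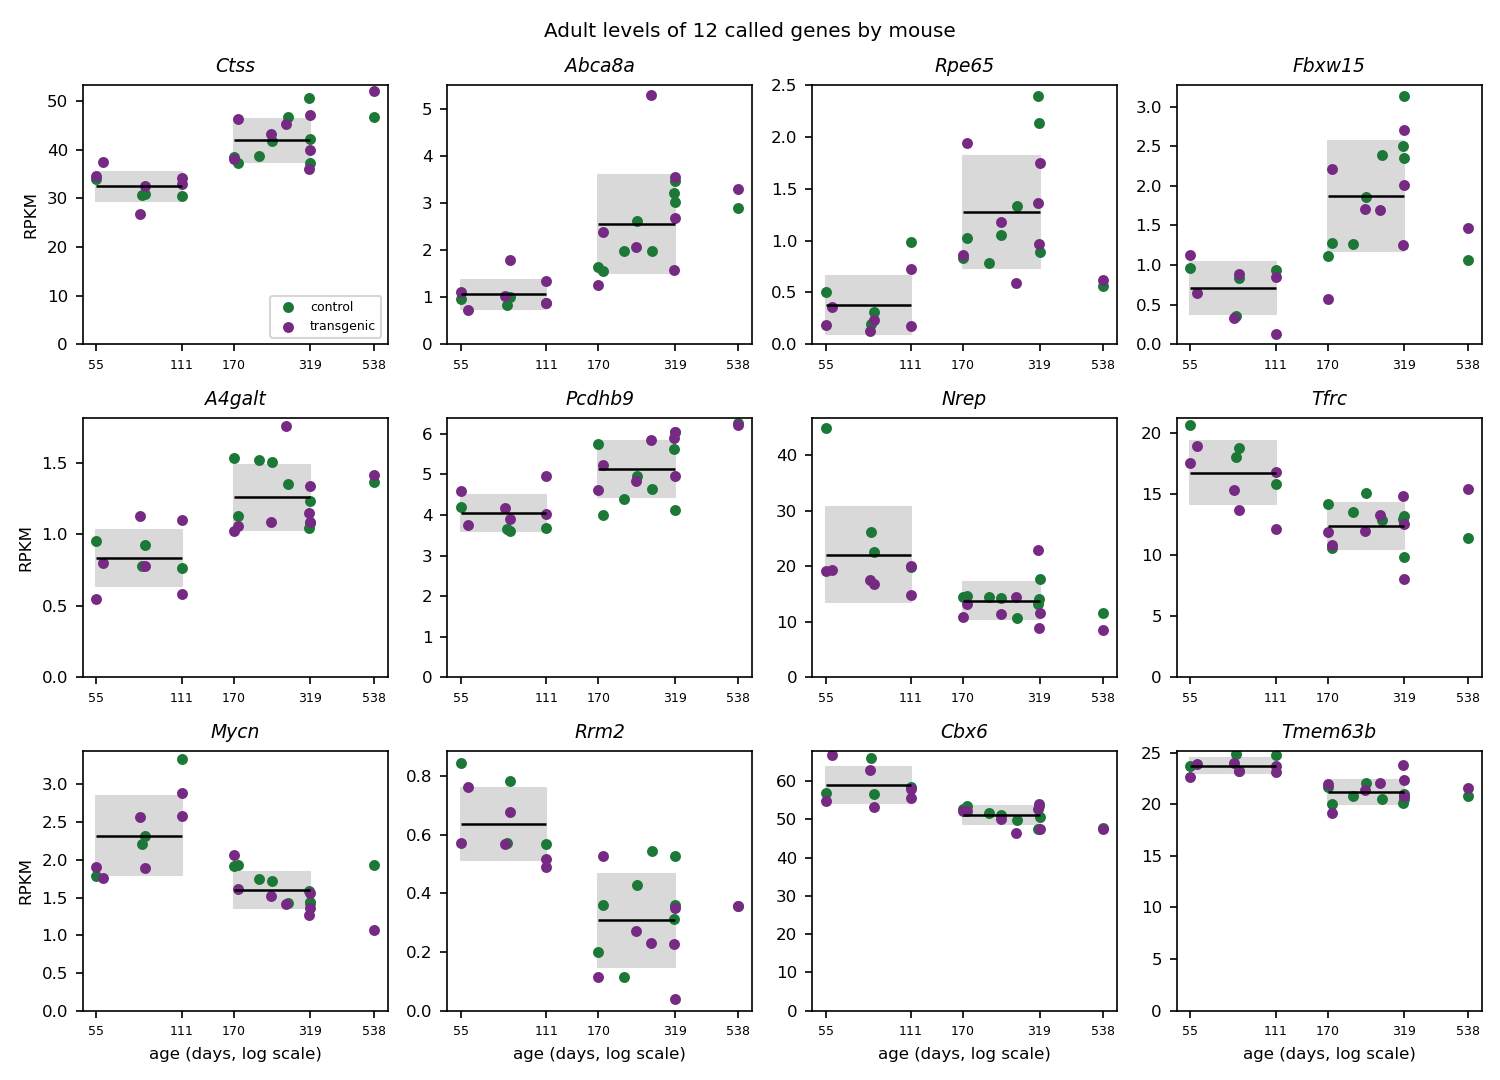
RPKM of 12 called genes in each adult mouse against age in days on a log axis, with control mice in green and transgenic mice in purple. The line and grey band give the mean and SD of the 10 young adult and 15 mid-life mice, and the 2 mice of day 538 stand alone at the right.

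Abca8a (ENSMUSG00000041828), an ATP-binding cassette transporter of the subfamily that moves lipids, rose more in ratio. Its young adult levels ran from 0.720 to 1.80 RPKM around a median of 0.986, and its mid-life levels from 1.25 to 5.29 RPKM around 2.39. In 11 of 15 mid-life mice Abca8a was above the highest young mouse, and the highest value of all was in transgenic mouse 55. The log2 difference was 0.93 ± 0.16 (SE, adjusted p = 0.0294), a ratio of mean RPKM of 2.41. Reads per library were 47 to 120 in young and 74 to 314 in mid-life mice. Within mid-life it was higher in older mice, by 0.74 ± 0.25 per doubling of age (SE, unadjusted p = 0.00683, adjusted p = 0.206). Without mouse 55 the log2 difference was 0.84 (adjusted p = 0.0201), and the call was lost on leaving out any 1 of 8 other mice (17, 18, 19, 24, 26, 47, 57 or 58, adjusted p up to 0.0858). On days 3 to 12 its mean was 1.05 ± 0.579 RPKM (SD, n = 23) and on days 21 to 34 it was 0.367 ± 0.0655 RPKM (SD, n = 9), so that Abca8a, unlike Ctss, was at its lowest in the juvenile cortex.

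Rpe65 (ENSMUSG00000028174), the isomerase of the visual cycle, known from the pigment epithelium of the eye, had the largest ratio but few reads. Young adults had 2 to 18 reads (median 5) and mid-life mice 9 to 44 (median 18). In RPKM this was 0.123 to 0.986 around a median of 0.274, against 0.595 to 2.39 around 1.05. Rpe65 passed the filter of 0.5 RPKM mainly through the mid-life mice, the group where it was high. The groups overlapped, with 9 of 15 mid-life mice above the highest young mouse. On the log2 scale, where the pseudocount of 0.5 shrinks such low values, the difference was 0.98 ± 0.17 (SE, adjusted p = 0.0294), and it ran from 0.69 to 1.56 over 17 other settings, 14 of which kept the call. The control mouse of day 538, at 0.557 RPKM, was below every mid-life mouse, and the transgenic one stood at 0.617 RPKM. The call was lost without mouse 17, 18, 19 or 58 (adjusted p up to 0.0858). Fbxw15 (ENSMUSG00000074060), an F-box protein of a mouse-specific cluster of similar genes, was also scarce, at 2 to 17 reads in young and 8 to 56 reads in mid-life mice. It ranged from 0.128 to 1.13 RPKM (median 0.842) and from 0.569 to 3.13 RPKM (median 1.86), with 13 of 15 mid-life mice above the highest young mouse. Its difference was 0.94 ± 0.18 (SE, adjusted p = 0.0454), and within mid-life it was higher in older mice by 0.83 ± 0.27 per doubling of age (SE, unadjusted p = 0.00567, adjusted p = 0.191). Reads that fit several genes of that cluster could have been split among them, so the level of this 1 gene is uncertain. The mean was 0.0282 RPKM on days 3 to 12 and 0.0795 RPKM on days 21 to 34, and the mice of day 538 stood at 1.06 and 1.47 RPKM.

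A4galt (ENSMUSG00000047878), the synthase of the glycolipid globotriaosylceramide, rose by 0.40 ± 0.08 (log2, SE, adjusted p = 0.0454). Its levels were 0.549 to 1.13 RPKM (median 0.789) in young and 1.03 to 1.76 RPKM (median 1.15) in mid-life mice, with 8 of 15 above the highest young mouse. Nf1 (ENSMUSG00000020716), neurofibromin, which switches off Ras, rose by 0.17 ± 0.03 (SE, adjusted p = 0.0454). Its levels went from 6.33 to 7.73 RPKM (median 6.64) in young mice to 6.98 to 8.10 RPKM (median 7.60) in mid-life mice, of which 7 of 15 were above the highest young mouse. Both rises were therefore shifts of overlapping groups. The 2 remaining rises besides Pcdhb9 were of processed pseudogenes, Rpl6l (0.30 ± 0.06, SE, adjusted p = 0.0454) and Gm15427 (0.21 ± 0.04, SE, adjusted p = 0.0461), whose reads may belong in part to the genes they were copied from. Rpl6l ranged from 7.01 to 9.95 RPKM (median 8.53) in young and from 9.18 to 12.6 RPKM (median 10.4) in mid-life mice, and Gm15427 from 34.9 to 47 RPKM (median 38.9) and from 41.2 to 49.6 RPKM (median 45.6). Genes of ribosomal proteins are given beside them. Of 27 genes of the cytosolic ribosome 0 were called (limma), and 3 (11.1%) had an unadjusted p under 0.05, against 12.6% of all genes. Their median was 0.04, or -0.03 with 4 tissue scores as covariates. Rps24 stood at 0.13 ± 0.04 (SE, adjusted p = 0.229) and Rps16 at 0.29 ± 0.10 (SE, adjusted p = 0.265).

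Pcdhb9 (ENSMUSG00000051242) belongs to the clustered beta protocadherins, adhesion proteins that neurons express in varied combinations. It ranged from 3.61 to 4.95 RPKM (median 3.97) in young adults and from 3.99 to 6.04 RPKM (median 4.97) in mid-life, with 9 of 15 mice above the highest young mouse. Its difference was 0.32 ± 0.07 (SE, adjusted p = 0.0454), and the mice of day 538 stood higher again at 6.26 and 6.22 RPKM. No other member of the cluster was called: of 21 members tested 1 rose, 12 had a positive difference and the median was 0.02. Pcdhb17 stood at -0.17 ± 0.05 (SE, adjusted p = 0.203) and Pcdhb14 at 0.14 ± 0.07 (SE, adjusted p = 0.379). These genes are alike in sequence, so reads may have been assigned to the wrong member.

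Among the falls, Nrep (ENSMUSG00000042834), the neuronal regeneration related protein that is abundant in growing neurons, had the largest difference and the smallest p. Young adults ranged from 14.9 to 44.9 RPKM with a median of 19.6, and mid-life mice from 8.92 to 23.0 RPKM with a median of 14.1. In 13 of 15 mid-life mice Nrep was below the lowest young mouse, the highest young value being in the 55-day control mouse 17 and the highest mid-life value in transgenic mouse 56. It fell by 0.68 ± 0.12 (log2, SE, adjusted p = 0.0302). The difference was -0.92 ± 0.17 (SE) in control and -0.48 ± 0.15 (SE) in transgenic mice, and the interaction did not pass (0.43, unadjusted p = 0.0724, adjusted p = 0.792). Without mouse 17 the difference was -0.57 (adjusted p = 0.0562), and the call was lost on leaving out any 1 of 10 mice (17, 18, 19, 24, 25, 26, 47, 54, 57 or 58). Over 18 other settings the call was kept in 14, with an adjusted p of up to 0.434 (limma). The value at mid-life continued an earlier decline: the mean was 274 ± 137 RPKM (SD, n = 23) on days 3 to 12, 37.3 ± 12.7 RPKM (SD, n = 9) on days 21 to 34, 22.1 ± 8.59 RPKM (SD, n = 10) in young adults and 13.8 ± 3.34 RPKM (SD, n = 15) in mid-life. The mice of day 538 stood at 11.6 and 8.61 RPKM.

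Rrm2, the small subunit of ribonucleotide reductase that makes DNA precursors in dividing cells, and Mycn, a transcription factor of growing precursors, also fell. Rrm2 (ENSMUSG00000020649) was scarce, with 14 to 26 reads in young and 1 to 17 reads in mid-life mice. It passed the filter of 0.5 RPKM mainly through the young mice, the group where it was high. It went from 0.489 to 0.846 RPKM (median 0.572) in young to 0.0404 to 0.546 RPKM (median 0.314) in mid-life mice, 12 of 15 of which were below the lowest young mouse, and fell by 0.53 ± 0.10 (log2, SE, adjusted p = 0.0454). The size depended on the pseudocount, at -1.0 with 0.1 and -0.34 with 1, and the call was kept in 9 of 17 other settings and on leaving out 7 of the 25 mice in turn. Its mean was 4.40 ± 2.48 RPKM (SD, n = 23) on days 3 to 12. Mycn (ENSMUSG00000037169) went from 1.75 to 3.33 RPKM (median 2.26) in young to 1.27 to 2.06 RPKM (median 1.56) in mid-life mice, with 12 of 15 below the lowest young mouse, and fell by 0.42 ± 0.09 (SE, adjusted p = 0.0454). The Mycn change was not even within the groups: its slope per doubling of age was 0.57 ± 0.10 (SE, unadjusted p = 2.01e-05, adjusted p = 0.103) within young adults and -0.35 ± 0.09 (SE, unadjusted p = 0.000836, adjusted p = 0.118) within mid-life. Its mean was 7.43 RPKM on days 3 to 12 and 2.24 RPKM on days 21 to 34, and the mice of day 538 stood at 1.93 and 1.07 RPKM.

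The lists to which Nrep and Rrm2 belong held few other changes. Of 15 genes of immature neurons 1 fell, Nrep, and 4 had an unadjusted p under 0.05, with a median of -0.05 that was 0.02 among members with a mean of at least 2 RPKM. Sox4, a transcription factor of young neurons, stood at -0.42 ± 0.15 (SE, adjusted p = 0.264; called with log2 day as a continuous term, adjusted p = 0.0359), Stmn1, a regulator of microtubules, at -0.19 ± 0.08 (SE, adjusted p = 0.319), and Nnat at 0.65 ± 0.31 (SE, adjusted p = 0.390). Nnat is also abundant in the hypothalamus and stands in that list too. Of 16 cell division genes only 10 passed the filter on low values, 1 fell, Rrm2, and the median was 0.00. Ccnd2, a cyclin of the first growth phase, stood at -0.44 ± 0.12 (SE, adjusted p = 0.167) and Mcm4, a subunit of the replicative helicase, at 0.13 ± 0.08 (SE, adjusted p = 0.482). Among markers of oligodendrocyte precursors, 0 of 14 were called and 4 had an unadjusted p under 0.05 (limma). Gpr17, a receptor of precursors on the point of differentiating, was nearest, at 10.2 ± 1.66 RPKM (SD, n = 10) against 7.96 ± 1.33 RPKM (SD, n = 15), a difference of -0.35 ± 0.09 (SE, adjusted p = 0.113). Fyn, a kinase of early myelination, stood at -0.13 ± 0.04 (SE, adjusted p = 0.186), Enpp6, of newly formed oligodendrocytes, at -0.32 ± 0.12 (SE, adjusted p = 0.281) and Olig2 at 0.27 ± 0.13 (SE, adjusted p = 0.378). With log2 day as a continuous term Gpr17 and Fyn were both called (adjusted p = 0.0312 each, limma), and Gpr17 was also called with a hypothalamus score as a covariate (adjusted p = 0.0396).

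Tfrc (ENSMUSG00000022797), the transferrin receptor that carries iron into cells and across the vessel wall, fell by 0.44 ± 0.09 (SE, adjusted p = 0.0454). Young adults ranged from 12.1 to 20.6 RPKM (median 17.1) and mid-life mice from 8.02 to 15.1 RPKM (median 12.9). The groups overlapped by more than those of Nrep, with 6 of 15 mid-life mice below the lowest young mouse, and within young adults Tfrc was lower in older mice, by -0.41 ± 0.16 per doubling of age (SE, unadjusted p = 0.0187, adjusted p = 0.429). Day 538 gave 11.4 RPKM in the control and 15.4 RPKM in the transgenic mouse. Endothelial genes, which mark the cells where much of this receptor sits in the brain, were lower in 10 of 14 with a median of -0.06. Of the 14, 0 were called (limma) and 5 (35.7%) had an unadjusted p under 0.05, against 12.6% of all genes. Cldn5, the claudin that seals brain vessels, was 16.3 ± 2.70 RPKM (SD, n = 10) in young and 12.6 ± 2.35 RPKM (SD, n = 15) in mid-life mice (-0.38 ± 0.10, SE, adjusted p = 0.116), and it was called with log2 day as a continuous term (adjusted p = 0.0408) and with all 59 mice fitted (adjusted p = 0.0322). Slc7a5, the large amino acid transporter, stood at -0.25 ± 0.07 (SE, adjusted p = 0.176), Slco1a4, an organic anion carrier, at -0.32 ± 0.11 (SE, adjusted p = 0.247) and Itm2a at -0.27 ± 0.11 (SE, adjusted p = 0.311). The summed endothelial genes ran from 135 to 175 RPKM in young and from 129 to 194 RPKM in mid-life mice, overlapping almost wholly.

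To show the sequence upstream of 3 called genes whose protein products act at the cell surface or in the lysosome, the window from 250 bases before to 30 bases after the gene start is printed from RefSeq, build GRCm38.p6, in lower case with matches to searched motifs in capitals on either strand. The windows are Ctss (chr3:95526536-95526815, plus strand), Abca8a (chr11:110095908-110096187, minus strand) and the first of 2 listed starts of Tfrc (chr16:32608646-32608925, plus strand).
Ctss: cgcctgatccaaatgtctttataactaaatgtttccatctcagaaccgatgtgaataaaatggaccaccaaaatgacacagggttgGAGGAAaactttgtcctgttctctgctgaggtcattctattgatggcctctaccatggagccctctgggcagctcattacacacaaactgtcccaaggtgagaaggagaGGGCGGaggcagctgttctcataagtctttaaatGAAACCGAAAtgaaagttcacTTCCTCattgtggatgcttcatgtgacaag
Abca8a: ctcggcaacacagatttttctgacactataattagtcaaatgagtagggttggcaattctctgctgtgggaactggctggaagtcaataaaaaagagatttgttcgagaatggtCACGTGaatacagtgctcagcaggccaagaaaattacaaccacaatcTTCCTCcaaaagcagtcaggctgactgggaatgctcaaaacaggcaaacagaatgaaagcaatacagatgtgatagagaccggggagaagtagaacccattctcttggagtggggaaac
Tfrc: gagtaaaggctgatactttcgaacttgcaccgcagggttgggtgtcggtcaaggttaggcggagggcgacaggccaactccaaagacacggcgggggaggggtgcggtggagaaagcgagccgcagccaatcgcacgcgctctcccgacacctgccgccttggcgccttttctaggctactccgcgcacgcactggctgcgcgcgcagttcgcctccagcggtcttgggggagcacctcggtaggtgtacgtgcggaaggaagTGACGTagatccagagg
Motifs were searched on both strands in windows of the same length in 32851 promoters. The Ctss window holds the interferon-stimulated response element, found in 3.28% of promoters, and GAGGAA, the core letters bound by the myeloid factor PU.1, found in 25.98%. It also holds GGGCGG, the GC box, found in 34.7% of promoters, and TATAAA, found in 13.1% and left in lower case. The Abca8a window holds CACGTG, an E-box, found in 6.79%, and GAGGAA. The Tfrc window holds TGACGT, part of a cyclic AMP response element, found in 7.26%. No motif overlaps another in capitals, and these matches are letters in a window, with no measurement of binding. Of the 22 called genes, 17 had a promoter in the table.

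The other falls ran from a ratio of mean RPKM of 0.654 for Nrm to 0.895 for Tmem63b. Nrm (ENSMUSG00000059791), a protein of the inner nuclear membrane, fell by 0.48 ± 0.10 (SE, adjusted p = 0.0454), from 1.26 to 2.51 RPKM (median 1.89) in young to 0.783 to 1.74 RPKM (median 1.23) in mid-life mice. Cbx6 (ENSMUSG00000089715), a chromobox subunit of Polycomb complexes, fell by 0.21 ± 0.04 (SE, adjusted p = 0.0454), from 53.3 to 66.9 RPKM (median 57.5) to 46.6 to 54.2 RPKM (median 51.6). Tmem63b (ENSMUSG00000036026), a cation channel that opens on membrane stretch, fell by 0.16 ± 0.03 (SE, adjusted p = 0.0454). Of its values, 22.6 to 24.9 RPKM (median 23.7) in young and 19.1 to 23.8 RPKM (median 21.0) in mid-life mice, 14 of 15 in mid-life were below the lowest young mouse. This was the clearest separation of all 22 genes by that count, on a ratio of mean RPKM of 0.895. The call of Tmem63b was nevertheless kept in only 6 of 18 other settings and on leaving out 5 of the 25 mice in turn. Zfand5 (ENSMUSG00000024750), a zinc finger protein of proteasomal degradation, fell by 0.16 ± 0.03 (SE, adjusted p = 0.0461), with 8 of 15 mid-life mice below the lowest young mouse. The falls of Gde1, a phosphodiesterase (-0.24 ± 0.05, SE), of Bet1l, a SNARE of the Golgi (-0.25 ± 0.05, SE), and of Mrpl36, of the mitochondrial ribosome (-0.27 ± 0.06, SE), each had adjusted p = 0.0454. Ift20, of transport in cilia, fell by 0.20 ± 0.04 (SE, adjusted p = 0.0461) and Gm6180, a processed pseudogene whose reads may belong to another gene, by 0.29 ± 0.06 (SE, adjusted p = 0.0454). Cbx6 did not decline steadily over life, since its mean was 51.4 ± 23.7 RPKM (SD, n = 23) on days 3 to 12 and 78.1 ± 11.6 RPKM (SD, n = 9) on days 21 to 34. Gde1 followed the same order, with 85.3 and 113 RPKM at those ages and 96.8 and 82.2 RPKM in young adult and mid-life mice.

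**Figure D3:**
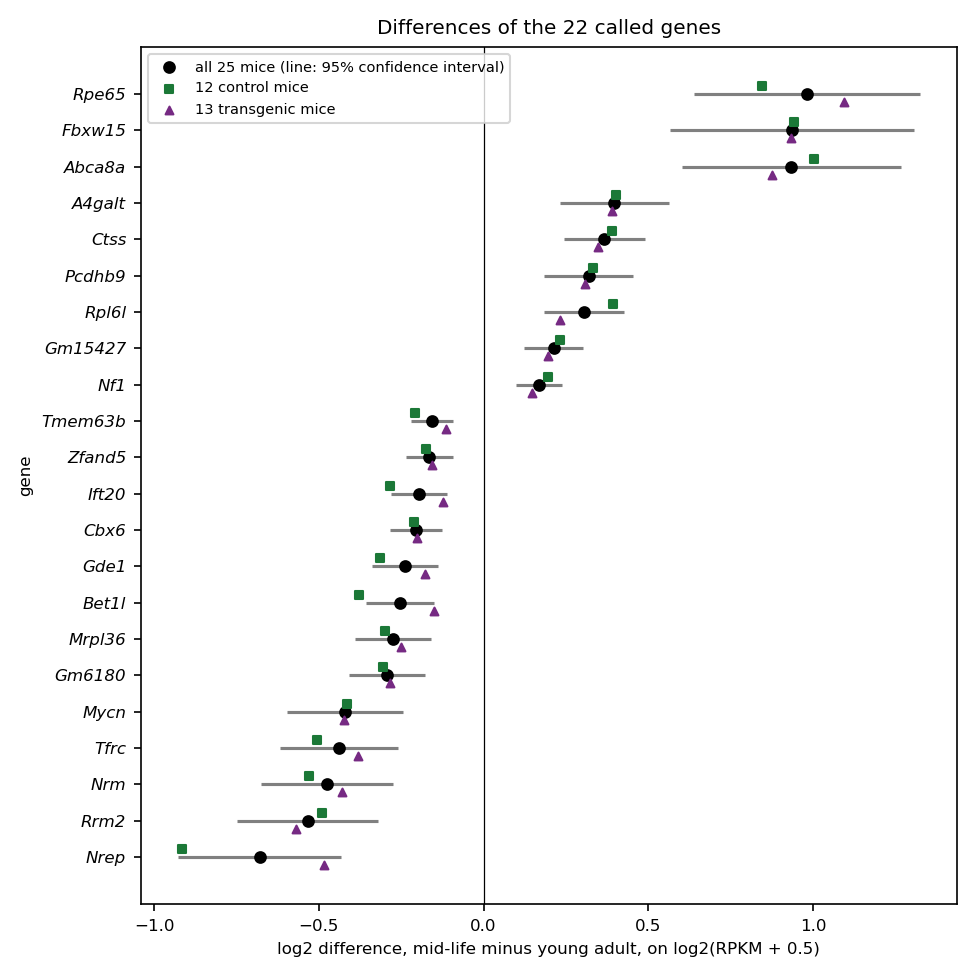
Log2 difference (mid-life minus young adult) of the 22 called genes in all 25 mice with its 95% confidence interval. Squares (12 control mice) and triangles (13 transgenic mice) come from a model of all 25 mice with an age coefficient for each genotype. Both genotypes lie on the same side of 0 for every gene shown.

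Whether the change differed between control and transgenic mice was asked with an interaction term, and 0 of 15362 genes passed (0%; limma), against 941 genes (6.13%) at unadjusted p under 0.05. Within 8 pairs of a control and a transgenic mouse of the same day and line, 3 young and 5 mid-life, the interaction passed for 0 genes, and its unadjusted p was under 0.05 for 748 (limma). Among the 22 called genes, 2 had an unadjusted p under 0.05 for this term: Bet1l, at -0.38 ± 0.07 (SE) in control and -0.15 ± 0.06 (SE) in transgenic mice (unadjusted p = 0.0208, adjusted p = 0.792), and Ift20, at -0.29 and -0.12 (unadjusted p = 0.0460, adjusted p = 0.792). The smallest p over all genes belonged to Gm20605 (-0.47 ± 0.10, SE), Ssc5d (-0.65 ± 0.15, SE) and 0610009L18Rik (-0.68 ± 0.16, SE), each transgenic minus control with adjusted p = 0.792, none of which passed. The difference of the age change between lines likewise gave 0 genes (0%, limma), with 459 (2.99%) at unadjusted p under 0.05. Nearest was Gm15510 (-1.70 ± 0.32, SE, line b minus line a, adjusted p = 0.328). Next came a gene with no symbol, ENSMUSG00000050852 (1.34, adjusted p = 0.733), and Efcab10 (1.31, adjusted p = 0.733). The difference of the age change between sexes gave 0 genes (0%, limma), with 408 (2.66%) at unadjusted p under 0.05. Gm11772, B230369F24Rik and A330041J22Rik were nearest at adjusted p = 0.99965. Rpl6l was the 1 called gene with an unadjusted p under 0.05 for sex: 0.16 ± 0.07 (SE) in females and 0.45 ± 0.07 (SE) in males (unadjusted p = 0.0115). Age coefficients for each genotype, each line and each sex were taken from models of all the mice compared, without separate fits of subsets. For control, transgenic, line a, line b, female and male mice 0 genes passed (limma). Unadjusted p-values under 0.05 were found for 2087 genes (13.6%) in control, 975 (6.35%) in transgenic, 1242 (8.08%) in line a, 1061 (6.91%) in line b, 1118 (7.28%) in female and 980 (6.38%) in male mice. The 22 called genes kept their direction in each, though these mice are the same that chose the genes.

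Within the age groups no gene passed a test of slope with age. In mid-life, days 170 to 319, 0 genes passed (0%; limma) and 2101 (13.7%) had an unadjusted p under 0.05. Nearest were Xaf1, an interferon-induced regulator of apoptosis (0.66 ± 0.11 per doubling of age, SE, adjusted p = 0.0551), Gm8394 (-0.63 ± 0.11, SE, adjusted p = 0.0551) and Pnisr, of splicing speckles (0.36 ± 0.06, SE, adjusted p = 0.0670). This count moved with single mice, reaching 4 higher and 22 lower without mouse 53 and 12 higher and 18 lower without mouse 56. In young adults, days 55 to 111, 0 passed (0%; limma) and 1553 (10.1%) had an unadjusted p under 0.05, with Gm14295 (0.61 ± 0.10, SE, adjusted p = 0.0917), Kif19a (-0.92 ± 0.17, SE, adjusted p = 0.103) and Mycn nearest. Of the 22 called genes, 13 had a mid-life slope of the same sign as their change and 9 of the opposite sign, and 3 of the 22 had an unadjusted p under 0.05 there (Fbxw15, Abca8a and Mycn).

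Lists of neuronal genes had medians near 0 and no called member (limma). Of 18 genes of synaptic vesicle release, 16 had a negative difference with a median of -0.07. An unadjusted p under 0.05 was found for 2 (11.1%), against 12.6% of all genes (limma). Unc13a, which primes vesicles, was 55.5 ± 6.05 RPKM (SD, n = 10) in young and 48.3 ± 6.53 RPKM (SD, n = 15), a difference of -0.22 ± 0.08 (SE, adjusted p = 0.280), Stx1a stood at -0.41 ± 0.19 (SE, adjusted p = 0.384) and Slc17a7 at -0.34 ± 0.18 (SE, adjusted p = 0.435). With 4 tissue scores as covariates the list's median was -0.01. Of 18 glutamate receptor genes 0 were called and 5 had an unadjusted p under 0.05. Grin1, the obligatory NMDA receptor subunit, stood at -0.16 ± 0.06 (SE, adjusted p = 0.263) and Grm2 at -0.46 ± 0.21 (SE, adjusted p = 0.354). Excitatory layer markers had 0 of 15 at unadjusted p under 0.05, with Lamp5 at -0.39 ± 0.21 (SE, adjusted p = 0.454) and Tbr1 at -0.39 ± 0.23 (SE, adjusted p = 0.484). Interneuron markers had 2 of 18 (11.1%), Nos1 at 0.46 ± 0.19 (SE, adjusted p = 0.324) and Cort at -0.30 ± 0.14 (SE, adjusted p = 0.384). Immediate early genes, which follow recent activity, were lower in 12 of 16 with a median of -0.11, and Ier2 stood at -0.29 ± 0.14 (SE, adjusted p = 0.391) and Egr4 at -0.36 ± 0.22 (SE, adjusted p = 0.499).

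Metabolic and glial genes gave no call either. Of 13 genes of glutamate and GABA metabolism 0 were called and 0 had an unadjusted p under 0.05 (limma). Glud1, the mouse counterpart of GLUD2, was 42.2 ± 5.29 RPKM (SD, n = 10) in young and 45.4 ± 6.27 RPKM (SD, n = 15) in mid-life mice (0.11 ± 0.07, SE, adjusted p = 0.526), and -0.03 with 4 tissue scores as covariates. Slc25a22, a mitochondrial glutamate carrier, stood at -0.10 ± 0.05 (SE, adjusted p = 0.415) and Glul, glutamine synthetase of astrocytes, at 0.13 ± 0.07 (SE, adjusted p = 0.441). Nuclear genes of oxidative phosphorylation were lower in 23 of 28 with a median of -0.04. An unadjusted p under 0.05 (limma) was found for 2 (7.14%, against 12.6% of all genes), Ndufs5 (-0.17 ± 0.07, SE, adjusted p = 0.331) and Ndufa4 (-0.09 ± 0.04, SE, adjusted p = 0.338). Of 22 myelin and oligodendrocyte genes, 11 were higher and 11 lower, with a median of 0.00. Apod, a lipid carrier that is known to increase in the ageing brain, was 38.8 ± 7.59 RPKM (SD, n = 10) in young and 53.98 ± 19.7 RPKM (SD, n = 15), a difference of 0.41 ± 0.15 (SE, adjusted p = 0.283) with a wide spread in mid-life, while Hapln2 stood at 0.48 ± 0.22 (SE, adjusted p = 0.364) and Mog at -0.31 ± 0.18 (SE, adjusted p = 0.473). Astrocyte genes had 1 of 16 at unadjusted p under 0.05, Id3 (-0.19 ± 0.08, SE, adjusted p = 0.331). Among 18 genes of DNA methylation and chromatin, 0 were called (limma) and 3 had an unadjusted p under 0.05. Tet3, which oxidises methylcytosine, stood at -0.25 ± 0.07 (SE, adjusted p = 0.147; called without mouse 22, adjusted p = 0.0483) and Dnmt3a, a DNA methyltransferase, at -0.15 ± 0.04 (SE, adjusted p = 0.172).

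**Figure D4:**
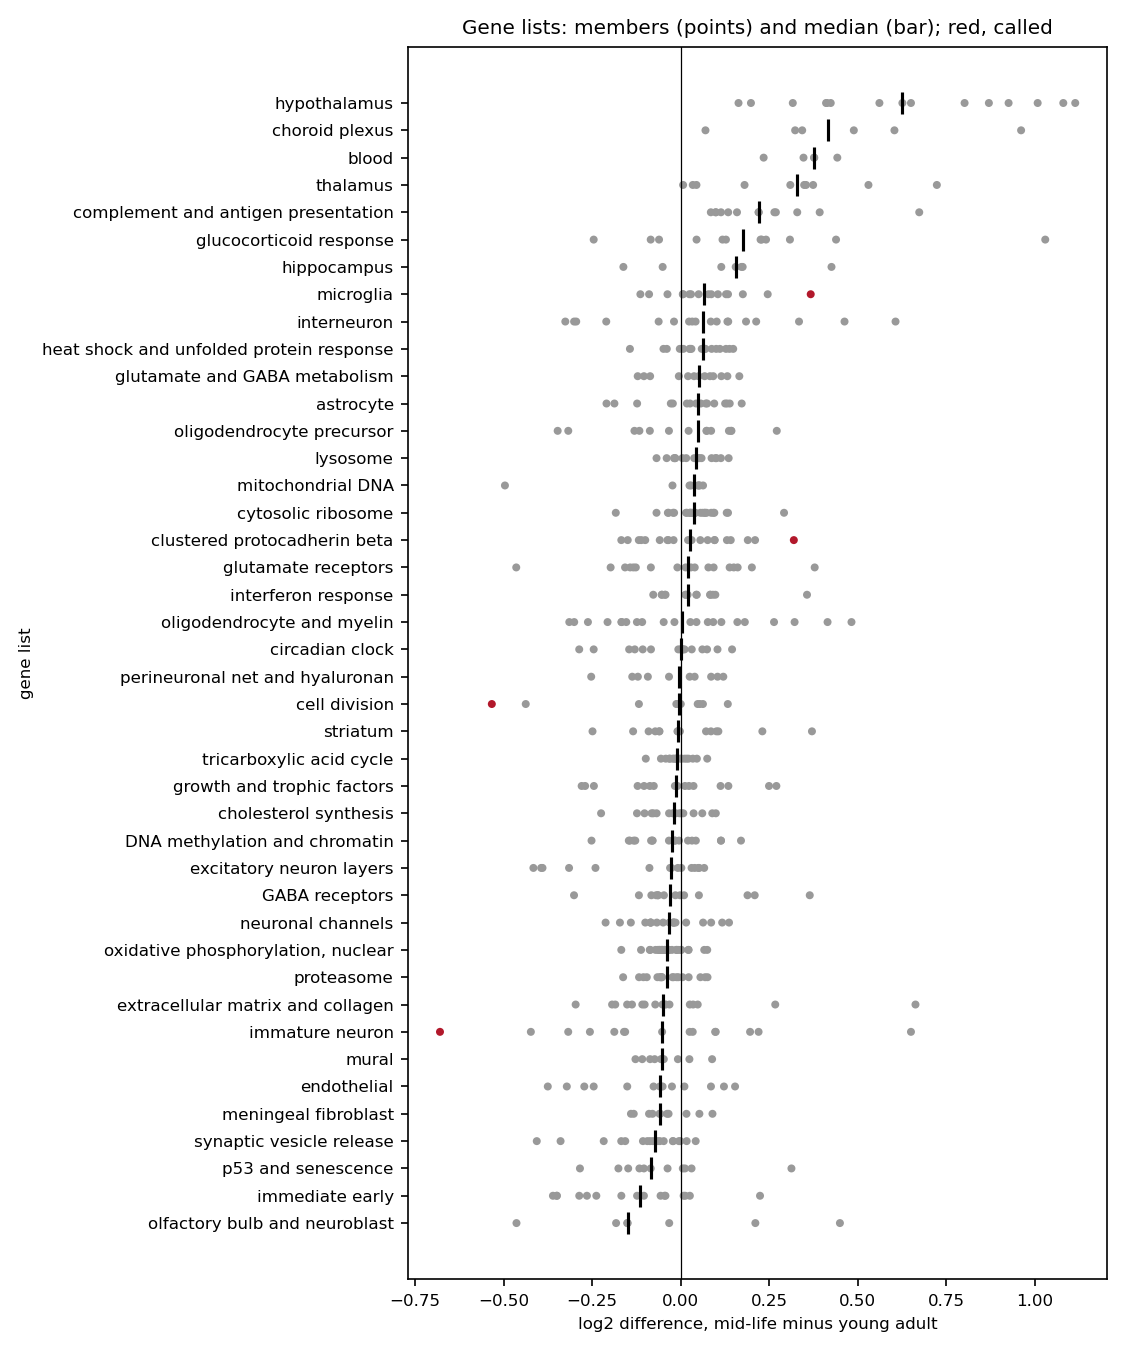
Log2 difference (mid-life minus young adult) of each tested member of 42 gene lists (points) with the list's median (bar), ordered by median, with called genes in red. Lists of hypothalamus, choroid plexus, blood and thalamus markers have the highest medians, and 4 members over all lists were called.

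The lists with the highest medians marked tissue next to the cortex. All 15 hypothalamus markers that passed the filter, of 19 in the table, had a positive difference with a median of 0.63 on the log2 scale, and 0 were called (limma; 3 at unadjusted p under 0.05). Gal, the neuropeptide galanin, was 1.504 ± 1.93 RPKM (SD, n = 10) in young and 3.72 ± 3.38 RPKM (SD, n = 15), a difference of 1.11 ± 0.52 (SE, adjusted p = 0.378), with Baiap3 at 1.08 ± 0.51 (SE, adjusted p = 0.386) and Irs4 at 0.87 ± 0.43 (SE, adjusted p = 0.405). The list summed to between 116 and 658 RPKM per young mouse (median 219) and between 141 and 721 RPKM per mid-life mouse (median 376). Thalamus markers (10 of 10 positive, median 0.33) summed to 19.5 to 61.3 RPKM and 22.4 to 109 RPKM, and blood markers (5 of 5 positive, median 0.38) to 35.7 to 125 RPKM and 48 to 239 RPKM. Choroid plexus markers ran from 1.95 to 246 RPKM in young and from 4.36 to 1387 RPKM in mid-life mice, with Prlr at 0.49 ± 0.19 (SE, adjusted p = 0.300). Striatum markers did not lean one way, with 6 of 15 positive, a median of -0.01 and sums of 136 to 873 and 83.7 to 1313 RPKM. The spread within each age group was thus wider than the distance between the group medians, and the part of this in the results above was tested only through the fits with and without these libraries and scores.

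**Figure D5:**
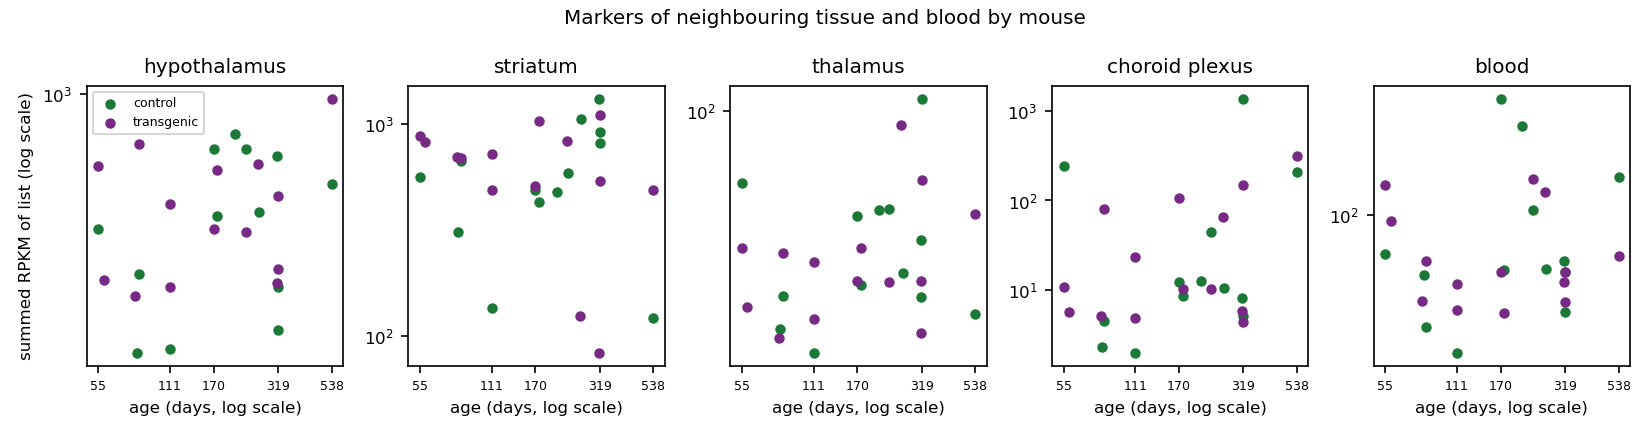
Summed RPKM (log axis) of the marker lists of hypothalamus, striatum, thalamus, choroid plexus and blood in each adult mouse against age in days (log axis), control in green and transgenic in purple. The age groups overlap in every panel, and 5 mid-life mice in striatum, 3 in thalamus, 3 in blood, 1 in choroid plexus and 1 in hypothalamus lie above the highest young mouse.

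All 22 called genes kept the sign of their difference when tissue or GC content was taken into account. Such fits reuse most of the mice that chose the genes, so a kept sign is no separate support. Values are given for Nrep, Ctss, Rpe65 and Abca8a, which had the smallest p. These 4 and Gm6180 were called with a hypothalamus score alone as a covariate (adjusted p from 0.0396 to 0.0480, limma). With scores for hypothalamus, striatum, thalamus and choroid plexus as covariates, 1 gene was called, Nrep (-0.74, adjusted p = 0.0146, limma). Ctss stood at 0.31 (adjusted p = 0.0542), Rpe65 at 1.06 (adjusted p = 0.0542) and Abca8a at 0.75 (adjusted p = 0.0643). Mrpl36, outside these 4, stood at -0.31 (adjusted p = 0.0542). Without mice 21, 23, 26 and 28, Nrep stood at -0.68 (adjusted p = 0.157), Ctss at 0.35 (adjusted p = 0.0812), Rpe65 at 1.04 (adjusted p = 0.0772) and Abca8a at 0.91 (adjusted p = 0.157). With the GC slope of each library as a covariate, which was 0.195 ± 0.407 (SD, n = 10) in young and -0.0333 ± 0.333 (SD, n = 15) in mid-life libraries, these 4 genes stood at -0.69, 0.37, 0.90 and 0.88 with adjusted p = 0.0758 each. With 4 scores as covariates the differences of Ctss and Abca8a became smaller and those of Nrep and Rpe65 larger in size. The shifts between these fits come from largely the same mice, and no spread was estimated for them. The cause of the differences was not tested.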

How the data were processed

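PolyA RNA of 59 mice, 1 library each, was sequenced from tissue labelled prefrontal cortex. The authors deposited a single table of gene by library values in RPKM. Reads were aligned with STAR to mm9, per the submitters' processing notes. For the STAR version, counting and annotation: not given in the sources used here. The table held 18610 rows, 17734 of them with a symbol, and all 59 columns were used.

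Mice were grouped by the age, genotype and line in their labels. Values were analysed as log2(RPKM + 0.5), and every log2 difference is on that scale, which understates changes of low genes. Genes reaching 0.5 RPKM in 10 or more of 25 mice were kept. Linear models with age group, genotype and line were fitted over all genes with limma 3.58.1 in R 4.3.3, two-sided, with Benjamini-Hochberg adjustment and a threshold of 0.05. Interactions with genotype, line and sex, and slopes with log2 age within each group, were fitted likewise. Relative depth was compared by permutation with 100000 draws. Sums and figures were made in Python 3.11.15 with pandas 2.3.3 and matplotlib 3.10.9. The fits were tested on simulated data. The labels name no batch, so no batch term was used.

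Members and gene lists were chosen with earlier results of these data known. Genes named are the 12 largest rises and falls among called genes with a mean of at least 1 RPKM, the other 2 called genes (Rrm2 and Rpe65, added after their values were seen), up to 4 members of each list described by smallest p, and the 3 smallest p of each interaction or slope. A few of the genes so chosen are left out of the text. Alternatives varied the pseudocount, filter, scaling, covariates, weights and mice. The fits with 4 tissue scores, with a blood score, without 4 libraries and within pairs of the same day and line were chosen after the data were seen.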

Additional observations from a re-analysis of the deposited data

Results flagged for a closer look

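Among 112 tests of a single mouse standing apart from its group of genotype and age, 10 did so, where chance gives about 1 in 20. In 6 cases the measure was a called gene. Among the 4 young adult controls, mouse 17 stood high for Ctss (33.99 RPKM, the other 3 mice at 30.6 to 30.8) and for Pcdhb9 (4.19 RPKM, the others at 3.61 to 3.68). In the same group mouse 18 stood high for Gde1 (109.8 RPKM, the others at 99.5 to 101) and low for Zfand5 (17.8 RPKM, the others at 19.4 to 19.6). Among the 7 mid-life transgenic mice, mouse 55 stood high for A4galt (1.76 RPKM, the others at 1.03 to 1.34) and mouse 56 for Nrep (23.0 RPKM, the others at 8.92 to 14.5). The remaining cases were sums of marker lists. The choroid plexus sum was 246 RPKM in young control mouse 17 (others 1.95 to 4.46), 79.4 RPKM in young transgenic mouse 49 (others 4.76 to 23.0) and 1387 RPKM in mid-life control mouse 28 (others 5.01 to 44.1). Mouse 28 also had the highest thalamus sum of its group, 109 RPKM (others 28.4 to 51.7).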

How the results depend on the processing

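The number of genes called ranged widely over the alternatives. The 22 called genes kept their direction in every alternative that tested them, but each reuses most of the mice that chose these genes, so this is no separate support. Besides Ctss, Rpe65, Abca8a and Nrep, the 18 other called genes kept their call in 6 to 12 of these settings. On leaving out the 25 mice in turn they kept it in 2 to 9 fits. Against 9 higher and 13 lower, the counts were 3 and 1 with no filter, 1 and 1 with a mean of at least 2 RPKM (15 of the 22 tested), 14 and 26 with array weights, 14 and 31 with log2 day as a continuous term, and 14 and 20 with the day 538 mice in the older group. They were 0 and 0 with the GC slope as a covariate, 0 and 1 with 4 tissue scores, 5 and 7 with a blood score, and 0 and 0 without mice 21, 23, 26 and 28. They were 12 and 8 under quantile normalization, 13 and 9 under median-ratio scaling, 6 and 6 with sex as a covariate, 8 and 7 with no covariates, 8 and 3 with all 59 mice fitted, and 3 and 9 with a hypothalamus score. Of the 22, 13 were also called with log2 day, 5 with all 59 mice and 16 under quantile normalization. Leaving out single mice gave 0 to 12 higher and 0 to 16 lower calls, and 6 of 25 such fits were within 1.5 times the count. The slope within mid-life had 2 higher calls under quantile normalization, and 0 to 12 higher and 0 to 22 lower without single mice. The difference of the age change between lines had 0 to 1 lower call, the 1 being without mouse 51. Only Glud1 (-0.033) and Tbr1 (0.0077) changed sign, among the genes named from lists, both with 4 tissue scores and neither being called. No paired analysis was possible for the age difference because no replicate number is shared between groups and the age groups share no day. The difference of the age change between genotypes, with pairs of the same day and line as blocks, gave 0 calls as it did without blocks. Genotype itself was a term of the model, and its own difference is not reported here. Genes under about 1 RPKM rest on few reads, such as Rpe65 and Rrm2. The cause of the changed counts was not tested.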
